A study of Mus musculus with 10 samples.

Results

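The Hox cluster genes are the homeobox genes whose symbol in the array annotation is Hoxa, Hoxb, Hoxc or Hoxd followed by a number, and 34 such genes were measured among the 17097 genes tested in epididymal white adipose tissue of mice on a high fat diet. Only probe sets paired with exactly 1 gene symbol were used, and where a gene had several its probe set was chosen by the mean log2 signal of the 10 arrays, the highest being taken. The symbol chose the genes within the family, and the family itself was chosen with earlier results of these data known. The choice by signal touched 6 genes, Hoxa3, Hoxb3, Hoxb4, Hoxc5, Hoxd8 and Hoxd13, since every other gene had 1 of the 42 probe sets. The HoxA cluster on chromosome 6 had 9 genes measured, HoxB on chromosome 11 had 10, HoxC on chromosome 15 had 6 and HoxD on chromosome 2 had 9.

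Tissue came from male mice of 3 genotypes, all on a C57/Bl6 background and all fed a diet with 45 energy% from fat for 16 weeks, starting at 8 to 12 weeks of age. ASC-/- mice (n = 3 arrays) lack the inflammasome adaptor ASC, encoded by Pycard, and Casp1-/- mice (n = 3) lack caspase-1, the protease that the inflammasome activates. Wild-type mice (WT, n = 4) were the controls. Neither allele is described in the labels as limited to a cell type, and no group on another diet was analysed here, so every value is from mice on that diet. The question of the study was the role of the inflammasome in obesity and insulin resistance.

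Hox genes encode transcription factors that give body regions their identity along the head-to-tail axis, and their order within a cluster follows the order of the regions in which they act. Genes at the low-numbered end act toward the head and those at the high-numbered end toward the tail, the limbs and the genital tract. The pattern set in the embryo largely persists in adult connective tissue, so that fat depots from different places carry different Hox profiles. In mice Hoxc8 is known as a white fat gene that represses the brown fat programme, and Hoxc9 and Hoxc10 are used as markers of white and of subcutaneous fat.

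In Casp1-/- fat 3 of the 34 genes rose against WT, Hoxc4, Hoxc5 and Hoxc8 of the HoxC cluster, a share close to the 8.17% of all genes that passed the same test (adjusted p under 0.05 in limma). RefSeq promoters (250 bases before to 50 after the start, GRCm38.p6) were at hand for 21 of the measured genes. The promoter of Hoxc4 at chr15:103034145-103034444 (+ strand) is shown because this gene rose, and that of Hoxa5 at chr6:52204538-52204837 (- strand) as a Hox gene of this tissue that did not pass the test. Those of Hoxb8 at chr11:96281655-96281954 (+ strand) and Hoxd9 at chr2:74697513-74697812 (+ strand) belong to genes that were high on a single WT array, and they were chosen after their values were seen. Capitals mark a CCAAT box (CCAAT), a GC box (GGGCGG) or a TATA box (TATAAA) on either strand.
Hoxc4 promoter: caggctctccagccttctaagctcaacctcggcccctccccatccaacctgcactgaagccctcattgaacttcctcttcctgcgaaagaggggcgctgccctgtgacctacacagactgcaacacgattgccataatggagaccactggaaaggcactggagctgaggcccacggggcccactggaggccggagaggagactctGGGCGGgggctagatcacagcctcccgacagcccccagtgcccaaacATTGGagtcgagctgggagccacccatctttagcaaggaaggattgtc
Hoxa5 promoter: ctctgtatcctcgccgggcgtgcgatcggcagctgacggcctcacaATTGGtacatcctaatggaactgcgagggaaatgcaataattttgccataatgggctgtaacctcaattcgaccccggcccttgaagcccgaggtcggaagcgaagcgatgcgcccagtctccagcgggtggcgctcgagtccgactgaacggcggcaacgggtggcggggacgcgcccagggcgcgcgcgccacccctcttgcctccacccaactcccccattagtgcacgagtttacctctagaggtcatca
Hoxb8 promoter: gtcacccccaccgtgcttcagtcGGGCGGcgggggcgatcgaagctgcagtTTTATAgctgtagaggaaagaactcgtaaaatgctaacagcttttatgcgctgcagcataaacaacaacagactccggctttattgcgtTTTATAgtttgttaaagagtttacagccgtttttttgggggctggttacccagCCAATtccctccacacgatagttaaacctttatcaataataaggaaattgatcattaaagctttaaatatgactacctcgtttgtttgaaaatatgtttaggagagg
Hoxd9 promoter: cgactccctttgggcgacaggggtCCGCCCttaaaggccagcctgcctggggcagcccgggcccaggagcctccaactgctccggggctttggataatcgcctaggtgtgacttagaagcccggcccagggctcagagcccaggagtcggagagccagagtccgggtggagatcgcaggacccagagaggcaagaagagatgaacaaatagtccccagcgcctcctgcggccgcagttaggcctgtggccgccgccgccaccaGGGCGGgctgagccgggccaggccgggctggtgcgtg

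The Hoxc4 window held a CCAAT box and a GC box, with 60.3% G or C and 9 CpG dinucleotides. The Hoxa5 window held a CCAAT box and 29 CpG dinucleotides at 61.7% G or C. Over all 32851 promoters of the same length the medians were 52.7% and 7 CpG dinucleotides. A CCAAT box was in 37.4% of all promoters and in 14 of the 23 Hox promoters listed, a GC box in 35.7% and in 9, and a TATA box in 13.6% and in 4. A composite site of Hox proteins and their partner Pbx, spelled TGATTNAT, was in 3.22% of all promoters and in those of Hoxa2 and Hoxd11 among the Hox genes. The retinoic acid response element DR5, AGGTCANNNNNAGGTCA, was in 0.00913% of all promoters and in none of the Hox windows. Its repeats are exactly 5 bases of any kind apart, and other spacings were not searched. Motifs may overlap each other, and a match is a string of letters, not a measured site.

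The tissue labels were set against marker lists. The mean log2 signal of 7 adipocyte markers was 11.92 to 12.20 on ASC-/-, 12.56 to 12.64 on Casp1-/- and 11.53 to 12.28 on WT arrays. The targeted genes fitted the labels: Pycard, with signals of 3.20 to 3.71 on ASC-/- arrays, had 8.39 to 10.57 on the others, and Casp1, with signals of 4.69 to 4.98 on Casp1-/- arrays, had 8.71 to 9.99 on the others. The poly-A spike-in controls put the arrays into a set with high signal, the 3 Casp1-/- arrays and WT replicate 1 (means of 7.51 to 8.07), and a set with low signal, all others (5.76 to 6.50), a split to which no label gives a name. On the second principal component (17.4% of the variance) scores were -29.2 for ASC-/- replicate 1 and -40.5 for WT replicate 1, and -0.69 to 13.2 for the remaining 8. Because bulk tissue was measured, a change in the number of cells of a type and a change in RNA per cell cannot be told apart.

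All Hox values are log2 signals made with RMA. As a background level served the highest mean among 23 control probe sets meant to bind nothing, at 4.82. By their mean over all arrays 13 of the 34 genes lay at or above it. These were Hoxa3, Hoxa5 and Hoxa7, Hoxb2, Hoxb3, Hoxb4 and Hoxb6, Hoxc4, Hoxc5, Hoxc8 and Hoxc9, and Hoxd8 and Hoxd9. Just above the level were Hoxa3 (4.93) and Hoxa7 (4.95), and just under it Hoxb5 (4.76) and Hoxd4 (4.56). Another 7 genes lay under it by mean but above it on at least 1 array, namely Hoxa9, Hoxa10, Hoxb5, Hoxb8, Hoxc10, Hoxd3 and Hoxd4. The remaining 14 were under it on all arrays.

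Set out by position, the share of genes above the background level was highest in the middle of the clusters. Among genes with the paralog numbers 1 to 4, which pattern the hindbrain and neck, 5 of 11 were at or above it. Among numbers 5 to 8, which act in the trunk, it was 6 of 9, and among numbers 9 to 13, genes of the lower trunk, limbs and genital tract, it was 2 of 14 (Hoxc9 and Hoxd9). The posterior genes under the level on all arrays included Hoxa13 and Hoxd13, known for digit and genital development, Hoxb13, a prostate gene, and Hoxc13, a hair follicle gene. Signals of different probe sets do not rank genes by RNA amount, so these counts say which probe sets stood above background and no more.

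**Figure D1:**
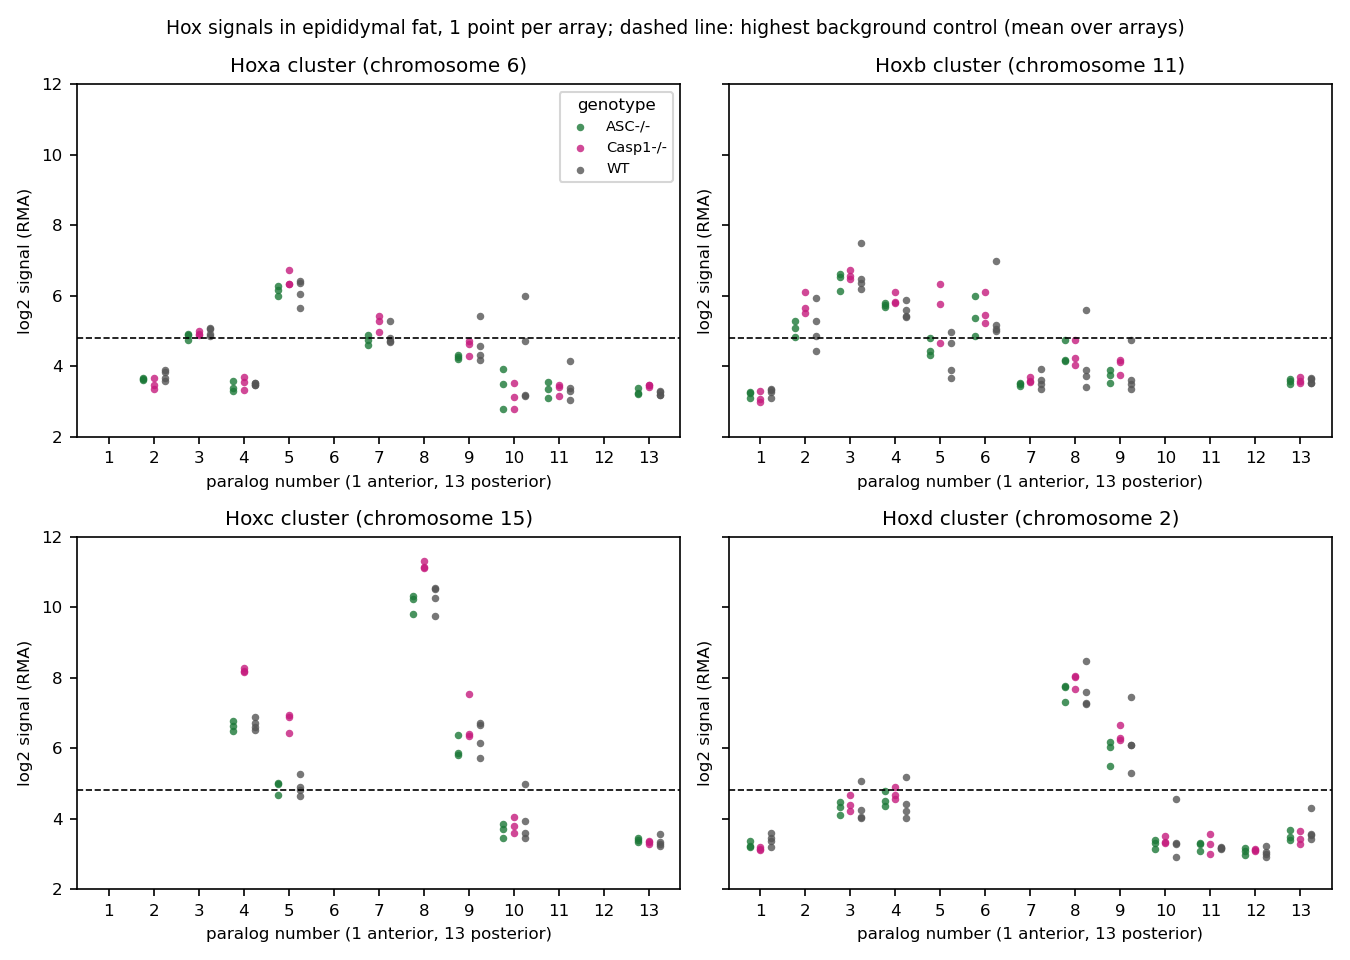
Log2 signal (vertical axis) of each measured Hox gene by paralog number (horizontal axis) in the 4 clusters, 1 point per array, with ASC-/- left, Casp1-/- in the middle and WT right; the dashed line is the background level of 4.82. The 3 Casp1-/- points of Hoxc4, Hoxc5 and Hoxc8 lie above all ASC-/- and WT points, and single WT points lie high for Hoxa10, Hoxb6, Hoxb8 and Hoxd9.

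In Casp1-/- fat 3 of the 34 Hox genes rose against WT and none fell, by limma with Benjamini-Hochberg adjustment over all genes. The 3 genes were Hoxc4, Hoxc5 and Hoxc8, all in the HoxC cluster. Over all 17097 genes 8.17% passed the same threshold (adjusted p under 0.05) and 4.31% passed as higher. By count, 3 of 34 is therefore close to the background for genes in either direction. At an unadjusted p under 0.05 there were 8 of the 34 Hox genes (these 3, Hoxa2, Hoxa13, Hoxb4, Hoxb5 and Hoxd1), against 27.6% of all genes. For 5 of the 34 the arrays of both genotypes did not overlap (Hoxc4, Hoxc5, Hoxc8 and, by small differences under the background level, Hoxa13 and Hoxd1), against 24.7% of all genes.

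Hoxc4, which in B cells activates the gene for the antibody-diversifying enzyme AID, had signals of 8.16, 8.19 and 8.27 on the Casp1-/- arrays. On the WT arrays it had 6.60, 6.90, 6.72 and 6.52. The lowest Casp1-/- array was thus well above the highest WT array, and the groups did not overlap. The difference was 1.52 ± 0.11 (SE) on the log2 scale, or 2.87-fold, with an adjusted p of 8.09e-04 in limma. By p, Hoxc4 took place 2 of the 17097 genes in this contrast, and by the size of the rise place 70.

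Hoxc5, a neighbour of Hoxc4 with a part in patterning the neck and upper trunk, had signals of 6.42, 6.87 and 6.93 on the Casp1-/- arrays. Its WT signals were 4.90, 4.80, 4.64 and 5.26. The WT values lay around the background level, on either side of it, and all Casp1-/- values lay above it. The difference was 1.84 ± 0.17 (SE), or 3.57-fold, with an adjusted p of 0.00403 in limma, which was place 6 by p and place 33 by size. With the WT signal at background, the size of the change is uncertain.

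A separate Hoxc5 probe set, not used for the gene because its mean was lower, pointed the same way with a smaller difference. It had 5.06, 5.06 and 5.35 on the Casp1-/- arrays, against 4.83, 4.92, 4.66 and 4.67 on the WT arrays. The difference was 0.38 and did not pass, with an adjusted p of 0.051 in limma over all probe sets. In ASC-/- minus Casp1-/- it did pass, with -0.58 (adjusted p = 0.019). The choice of probe set therefore sets the size given for Hoxc5.

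Hoxc8, which in mice restrains the brown fat programme in white fat precursors, had signals of 11.12, 11.31 and 11.13 on the Casp1-/- arrays. Its WT signals were 10.52, 10.55, 9.76 and 10.25. The groups did not overlap, though the gap was narrow and WT replicate 3 was the low end of a wide WT range. The difference was 0.91 ± 0.20 (SE), or 1.88-fold, with an adjusted p of 0.0285 in limma.

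Toward the posterior end of the cluster no gene passed. Hoxc9, used as a marker of white as against brown fat, had 6.39, 7.53 and 6.36 on the Casp1-/- arrays and 6.72, 6.13, 5.73 and 6.65 on the WT arrays, with a difference of 0.45 (95% interval -0.29 to 1.19) and an adjusted p of 0.416 in limma. Casp1-/- replicate 2 alone was high, and the other arrays of both genotypes overlapped. Hoxc10, best known from subcutaneous fat and from hindlimb motor neurons, had 3.78, 4.05 and 3.59 on the Casp1-/- arrays and 3.93, 3.59, 3.44 and 4.97 on the WT arrays. All but WT replicate 4 were under the background level, and the difference of -0.18 (95% interval -0.90 to 0.54) did not pass (adjusted p = 0.767 in limma). Hoxc13 was under the level on every array, with a difference of -0.03.

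**Figure D2:**
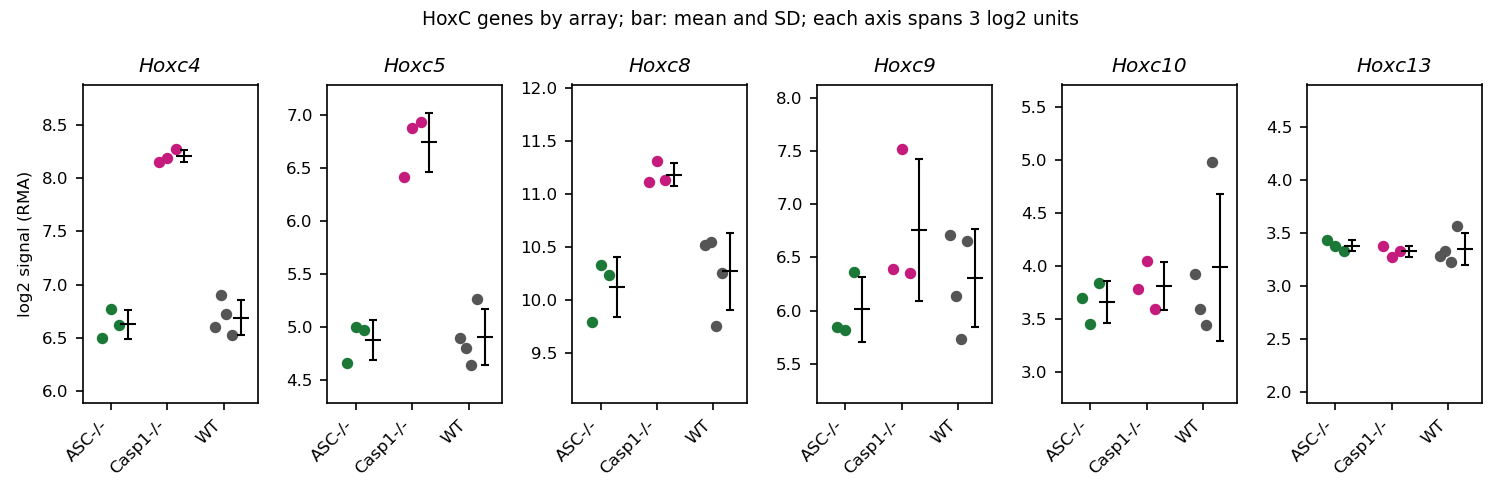
Log2 signal (vertical axis, every panel spanning the same width) of the 6 measured HoxC genes on each array, with ASC-/- left, Casp1-/- in the middle and WT right; points are arrays and bars the mean ± SD. The Casp1-/- points stand clear of the others for Hoxc4, Hoxc5 and Hoxc8, and overlap them for Hoxc9, Hoxc10 and Hoxc13.

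In chromosomal order the raised genes lay side by side among the measured ones. The measured gene next to Hoxc4 outside the cluster was Smug1, a DNA repair glycosylase, with a difference of -0.06 (adjusted p = 0.723 in limma). Next to Hoxc13 on the other side was Atp5g2, a subunit of ATP synthase, with -0.21 (adjusted p = 0.0952). Of 10 measured neighbours on each side, chosen after the values were seen, Atf7 (0.60) and Amhr2 (1.05) rose and Nckap1l (-1.80) fell, where 8.17% of all genes passed in this contrast, and the median over the 20 was -0.05. Nckap1l encodes a blood cell protein of the WAVE complex, and Amhr2 the receptor for anti-Müllerian hormone.

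**Figure D3:**
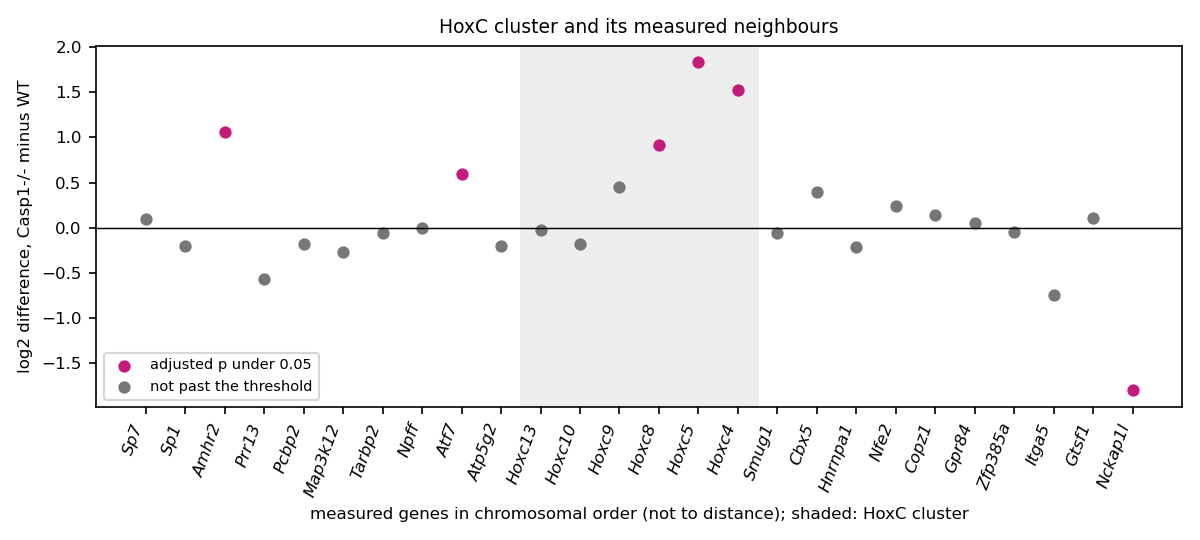
Log2 difference of Casp1-/- minus WT (vertical axis) for the 6 measured HoxC genes (shaded) and 10 measured genes on each side, in chromosomal order without distances (horizontal axis); coloured points have an adjusted p under 0.05. Hoxc8, Hoxc5 and Hoxc4 stand at 0.91, 1.84 and 1.52, while the neighbours Atp5g2 and Smug1 lie at -0.21 and -0.06.

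Several other measures moved with the Casp1-/- genotype. Over all genes 3.86% fell and 4.31% rose past the threshold in Casp1-/- minus WT, and 57.3% were higher by mean. Of 10 macrophage markers 6 fell against WT, among them Cd68 (-2.12, adjusted p = 0.0137) and Adgre1, the F4/80 antigen (-1.97, adjusted p = 0.0163 in limma). The mean of the list was 9.08 to 9.32 on Casp1-/- arrays and 9.83 to 11.24 on WT arrays. Of 7 adipocyte markers 1 rose, Pparg, the master regulator of fat cell formation (0.88, adjusted p = 0.0234). No marker of stromal progenitors (0 of 9), endothelium (0 of 8), smooth muscle (0 of 5), mesothelium (0 of 10) or epididymis (0 of 7) passed. All 8 endothelium markers were nevertheless higher by mean, with a median difference of 0.58 and a smallest adjusted p of 0.0557 in limma. All 10 mesothelium markers, those of the cells that line the fat pad, were higher by mean as well, with a median difference of 0.85 (smallest adjusted p = 0.146), and their list mean was 6.81 to 8.23 on Casp1-/- arrays and 6.25 to 7.28 on WT arrays. The part of these cells in the HoxC result was not tested.

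The Casp1-/- arrays also all belonged to the set with high spike-in signal, in which WT replicate 1 was the only control. Within that set the difference was 1.61 for Hoxc4 (adjusted p = 0.00635), 1.84 for Hoxc5 (adjusted p = 0.0289) and 0.66 for Hoxc8 (adjusted p = 0.42) with the set as a block in limma. These differences set the 3 Casp1-/- arrays against WT replicate 1 alone, and their p-values assume that this lone array varies as the arrays of the other groups do. With that block 0.702% of all genes passed, and 3 of 34 Hox genes, the third being Hoxd10 with -1.17 (adjusted p = 0.0306), a gene of the hindlimb that was high on WT replicate 1. Hoxc4 and Hoxc5 passed in all 10 fits that left out 1 array, with differences of 1.47 to 1.59 and 1.74 to 2.00. Hoxc8 passed in 6 of 10 (0.74 to 1.01) and was lost without any single Casp1-/- array or without WT replicate 4.

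In ASC-/- fat no Hox gene passed against WT, where 0.0351% of all genes did (6 genes by limma). None of the 34 had an unadjusted p under 0.05 either, against 2.0% of all genes, and in none did the arrays of both genotypes stay apart, against 3.19%. Hoxc4 had 6.50, 6.77 and 6.62 on the ASC-/- arrays, a difference from WT of -0.06 (95% interval -0.29 to 0.18). Hoxc5 had 4.66, 4.999 and 4.97, a difference of -0.02 (95% interval -0.42 to 0.37). Both intervals end below the rises of these genes in Casp1-/- fat. Hoxc8 had 9.80, 10.33 and 10.23, a difference of -0.15 (95% interval -0.60 to 0.30).

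For Hoxc9 the ASC-/- signals were 5.85, 5.82 and 6.36, and the difference from WT was -0.30 (95% interval -1.04 to 0.44). For Hoxc10 they were 3.70, 3.45 and 3.84, and the difference was -0.32 (95% interval -1.05 to 0.40). Arrays of both genotypes overlapped for each gene. The smallest adjusted p of any Hox gene in this contrast was 0.99997 in limma.

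The direct comparison of both null genotypes gave the same 3 genes. All were lower in ASC-/- than in Casp1-/- fat, with differences of -1.58 ± 0.11 (SE) for Hoxc4 (adjusted p = 5.29e-04), -1.86 ± 0.19 for Hoxc5 (adjusted p = 0.00346) and -1.06 ± 0.21 for Hoxc8 (adjusted p = 0.0238, all by limma). Over all genes 7.39% passed. Of the 34 Hox genes, 10 did not overlap between these arrays, against 40.4% of all genes. At or above the background level lay 13 of 34 Hox genes and 9885 of 17097 genes. Whether this bears on the shares without overlap was not tested. Of those 13 Hox genes all 13 were lower in ASC-/- fat by mean, where 57.3% of all genes were, and 7 did not overlap. Of the 21 under the level 2 did not overlap as lower and 1 as higher. The share without overlap among all genes above the level was not computed. With the spike-in set as a block, which leaves this contrast to rest on WT arrays of both sets, 1 Hox gene passed, against 0.368% of all genes, and that was Hoxc4 (-1.70, adjusted p = 0.0158). Hoxc5 then had -1.86 (adjusted p = 0.0763) and Hoxc8 -0.73 (adjusted p = 0.632). Hoxc4 and Hoxc5 passed whichever single array was left out, and Hoxc8 in 5 of 10 such fits, lost without any Casp1-/- array or without ASC-/- replicate 1 or 2.

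**Figure D4:**
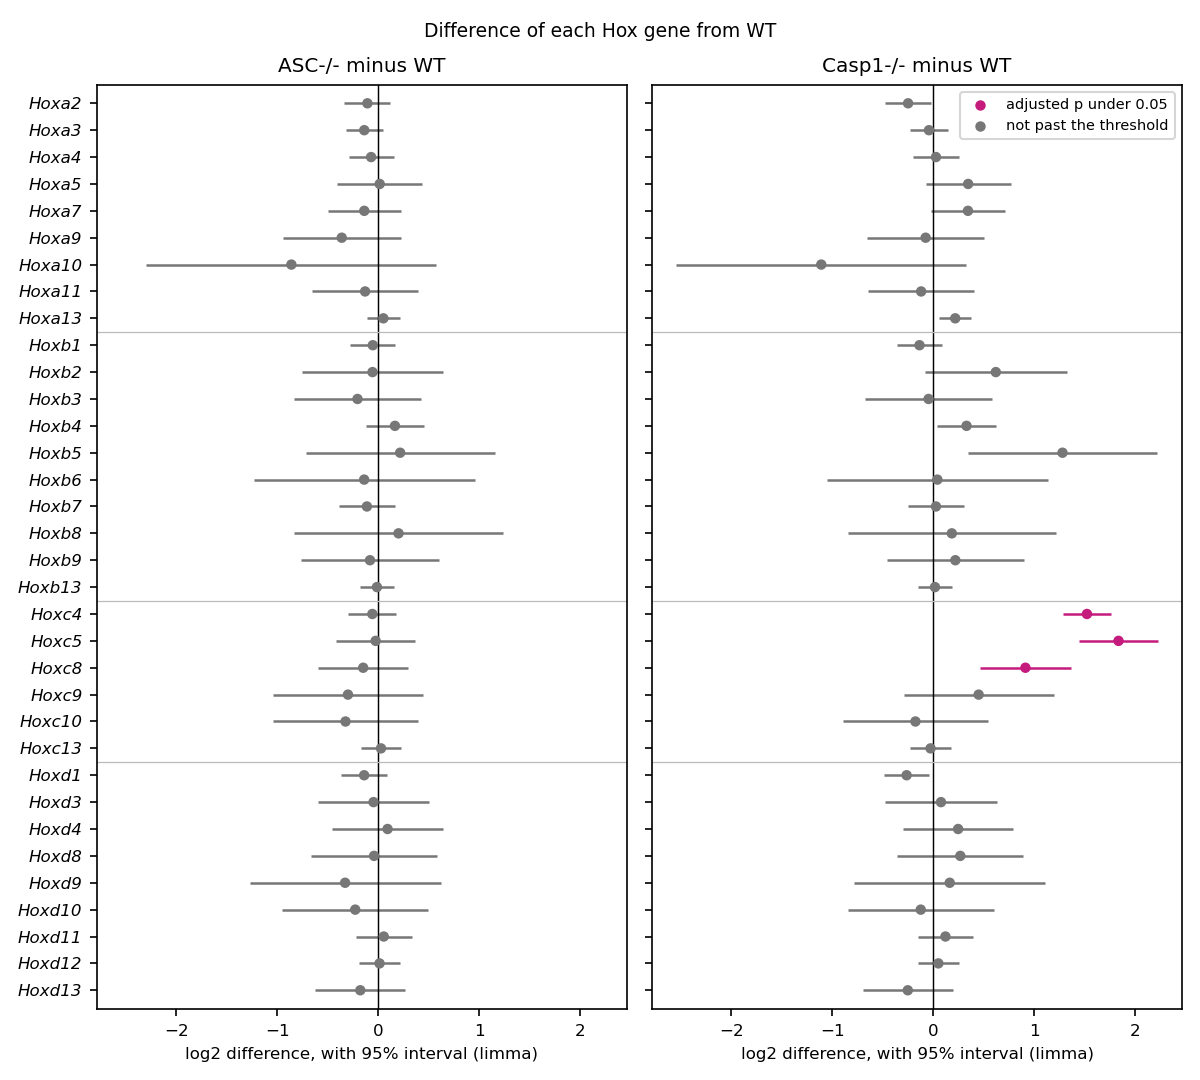
Log2 difference from WT (horizontal axis) of each of the 34 Hox genes (vertical axis, by cluster), ASC-/- minus WT in the left panel and Casp1-/- minus WT in the right; points are limma estimates and bars 95% intervals. Coloured points, with an adjusted p under 0.05, are Hoxc4, Hoxc5 and Hoxc8 in the right panel, and Hoxa10 has the widest intervals.

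The other clusters gave no call in these contrasts. The median Casp1-/- minus WT difference was -0.04 over the 9 HoxA genes, 0.11 over the 10 HoxB genes, 0.68 over the 6 HoxC genes and 0.08 over the 9 HoxD genes, with 0.06 over all 34 and 0.04 over all genes tested. By position it was 0.03 for paralog numbers 1 to 4, 0.34 for 5 to 8, where all 9 genes were higher by mean, and -0.005 for 9 to 13 (7 of 14 higher). Of all genes tested 57.3% were higher by mean. Those 9 include Hoxc5 and Hoxc8, and their smallest differences were 0.03 for Hoxb7 and 0.04 for Hoxb6. For ASC-/- minus WT the medians were -0.06, -0.04 and -0.15 in the same order, with -0.08 over all 34 and 0.01 over all genes.

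Hoxa5, known for lung and skeletal patterning and expressed in fat, had 5.995, 6.27 and 6.16 on ASC-/- arrays, 6.33, 6.35 and 6.74 on Casp1-/- arrays and 5.66, 6.06, 6.43 and 6.36 on WT arrays. The WT arrays overlapped those of both null genotypes, while all ASC-/- arrays lay below all Casp1-/- arrays, and the differences from WT were 0.02 for ASC-/- and 0.35 for Casp1-/- (adjusted p = 0.267 in limma). Hoxb3, a hindbrain and neck gene, had 6.63, 6.14 and 6.54 on ASC-/- arrays, 6.57, 6.49 and 6.72 on Casp1-/- arrays and 7.51, 6.20, 6.49 and 6.36 on WT arrays. WT replicate 1 was the highest of all, and the other WT arrays lay within the ASC-/- range and just under the Casp1-/- range. Hoxd8, a trunk gene, had 7.77, 7.32 and 7.74 on ASC-/- arrays, 7.68, 8.05 and 8.03 on Casp1-/- arrays and 8.48, 7.28, 7.26 and 7.59 on WT arrays, again with WT replicate 1 at the top. Neither Hoxb3 (-0.05) nor Hoxd8 (0.27) passed in Casp1-/- minus WT.

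Hoxb5, a gene of the enteric nervous system picked out here after its values were seen, had the next highest Casp1-/- minus WT difference after Hoxc5 and Hoxc4, at 1.28 ± 0.42 (SE). It had 5.78, 4.65 and 6.34 on Casp1-/- arrays and 4.98, 4.67, 3.90 and 3.67 on WT arrays, which overlap. The adjusted p was 0.087 in limma. The lowest difference was that of Hoxa10 (-1.11, adjusted p = 0.295), a gene of the reproductive tract.

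Further genes above the background level are given here, chosen after their values were seen. Hoxa7, a trunk gene, had 4.60, 4.76 and 4.88 on ASC-/- arrays, 4.97, 5.29 and 5.43 on Casp1-/- arrays and 4.71, 4.81, 4.73 and 5.29 on WT arrays. Casp1-/- was above ASC-/- on every array but overlapped WT through WT replicate 4, and the difference from WT was 0.34 (adjusted p = 0.203 in limma). Hoxb2 had 5.29, 4.85 and 5.10 on ASC-/- arrays, 5.51, 5.65 and 6.10 on Casp1-/- arrays and 5.94, 4.87, 5.29 and 4.44 on WT arrays, and only WT replicate 1 reached the Casp1-/- range. Hoxb4 had 5.68, 5.81 and 5.75 on ASC-/- arrays, 5.79, 5.83 and 6.12 on Casp1-/- arrays and 5.88, 5.41, 5.59 and 5.43 on WT arrays. Of the WT arrays only replicate 1 lay within the Casp1-/- range, as did ASC-/- replicate 2, and the differences from WT were 0.62 for Hoxb2 (adjusted p = 0.233) and 0.33 for Hoxb4 (adjusted p = 0.138).

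Among genes under the background level by mean, also chosen after their values were seen, Hoxd3, a gene of the neck vertebrae, had 4.33, 4.10 and 4.46 on ASC-/- arrays, 4.37, 4.68 and 4.21 on Casp1-/- arrays and 5.08, 4.23, 4.02 and 4.05 on WT arrays. Its neighbour Hoxd4 had 4.50, 4.36 and 4.78 on ASC-/- arrays, 4.67, 4.89 and 4.54 on Casp1-/- arrays and 5.17, 4.41, 4.23 and 4.01 on WT arrays. Both were highest on WT replicate 1 and overlapped between genotypes. Hoxa2, which patterns the branchial arches, differed by -0.25 in Casp1-/- fat (adjusted p = 0.149 in limma), and Hoxd1, known from pain-sensing neurons, by -0.26 (adjusted p = 0.127). Signals of both lay between 3.10 and 3.90 on all arrays, in the background range.

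A second pattern in the Hox genes ran across the arrays rather than the genotypes, and its genes were picked out after their values were seen. WT replicate 1 was the highest of all 10 arrays for 14 of the 34 genes, of which 4 were in HoxB and 7 in HoxD. It was above every other WT array for 7 of 10 HoxB and 7 of 9 HoxD genes, but for 4 of 9 HoxA and 1 of 6 HoxC genes. It exceeded the mean of the other WT arrays by at least 1 log2 unit in 9 genes. Among the 13 genes at or above the background level it was the highest of all 10 arrays for 5, and Casp1-/- replicate 3 for 6. The same counts over all genes were not made, so the pattern cannot be called particular to Hox genes.

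Hoxb6 had 6.98 on WT replicate 1 and 5.16, 5.01 and 5.06 on the other WT arrays. Hoxb8, a gene of blood progenitors and of microglia, had 5.59 on WT replicate 1 and 3.89, 3.42 and 3.72 on the others. Hoxd9, a gene of the limbs and lower spine, had 7.46 there and 6.09, 5.29 and 6.08 on the others. In each case WT replicate 1 was above all other WT arrays.

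Hoxa10 had 6.003 on WT replicate 1 and 3.15, 3.19 and 4.71 on the other WT arrays. Hoxb5os, the antisense transcript of Hoxb5, had 7.03, 5.08 and 5.64 on ASC-/- arrays, 6.31, 6.26 and 6.83 on Casp1-/- arrays and 8.88, 5.81, 4.93 and 4.44 on WT arrays. WT replicate 1 was the highest and ASC-/- replicate 1 the second highest. Over the 34 Hox genes, ASC-/- replicate 1 was above both other ASC-/- arrays in 11, in 0 of them by 1 log2 unit over their mean. Its median difference from that mean was -0.01. By cluster it was above both in 2 of 9 HoxA, 5 of 10 HoxB, 1 of 6 HoxC and 3 of 9 HoxD genes. Hoxb6, Hoxa10 and Hoxb8 were among these, at 0.89, 0.78 and 0.58 over the mean of the other ASC-/- arrays. Hoxd9, at 0.18 over that mean, was not above both. Of the noncoding Hox transcripts listed (Hoxa11os, Hoxaas2, Hoxb5os and Hoxd3os1) none passed in any contrast.

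Smooth muscle markers were high on WT replicate 1 and on ASC-/- replicate 1. The mean of 5 markers was 9.94 on ASC-/- replicate 1 and 7.51 and 7.86 on the other ASC-/- arrays. It was 7.90 to 8.16 on Casp1-/- arrays. On WT replicate 1 it was 11.35, and 7.47, 7.05 and 8.09 on the other WT arrays. Cnn1, calponin of smooth muscle, had 11.09 on WT replicate 1 and 3.61 to 5.26 on the other WT arrays, and Myh11, the smooth muscle myosin, had 11.04 and 5.32 to 7.27. Markers of the epididymis, the duct beside this fat pad, averaged 3.39 to 4.17 on all arrays, near background. The part of smooth muscle in the HoxB and HoxD signals was not tested.

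WT replicate 4 was the highest of all arrays for 4 of the 34 genes, Hoxa9 (5.42), Hoxc10 (4.97), Hoxb1 and Hoxc13. Hoxb1 and Hoxc13 were under the background level on all arrays. WT replicate 4 also had the second highest Hoxa10 (4.71). These genes were picked out after their values were seen, and the same count over all genes was not made. Hoxa9 is known from blood stem cells and leukaemia and Hoxc10 from the lower trunk. On the other 9 arrays Hoxa9 lay between 4.17 and 4.71 and Hoxc10 between 3.44 and 4.05.

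**Figure D5:**
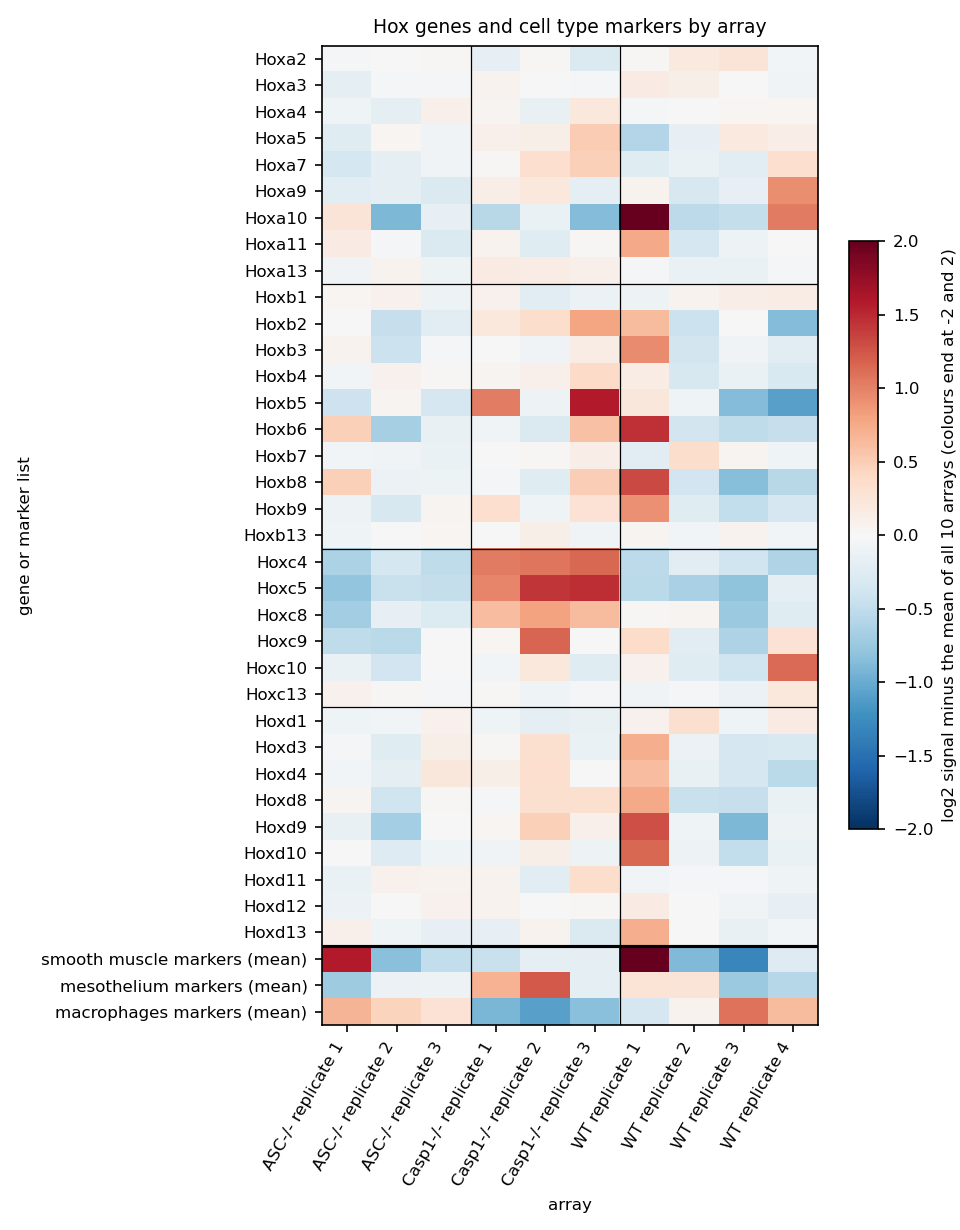
Deviation of each array (columns, by genotype) from the mean of all 10 arrays, in log2 units by colour, for the 34 Hox genes (rows, by cluster) and for the means of 3 marker lists below the thick line. The block of red for Hoxc4, Hoxc5 and Hoxc8 covers the Casp1-/- arrays, while the red of HoxB and HoxD genes lies in the column of WT replicate 1, the array with the highest smooth muscle mean (11.35).

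Leaving out WT replicate 1 changed the calls of other Hox genes. Without that array 8 of the 34 Hox genes rose in Casp1-/- minus WT, adding Hoxb2 (0.89), Hoxb4 (0.43), Hoxb5 (1.51), Hoxb9 (0.54) and Hoxd8 (0.54) to the HoxC genes. Over all genes 17.7% then passed, against 8.17% with all arrays. With ASC-/- replicate 1 left out as well, 6 Hox genes passed, against 16.1% of all genes, and the HoxC differences were then 1.49 for Hoxc4, 1.84 for Hoxc5 and 1.00 for Hoxc8. Hoxb2 is a hindbrain gene, and Hoxb4 is known for expanding blood stem cells.

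Partners and regulators of Hox proteins were mostly without a call, and their counts are to be read against the 4.31% of all genes that rose in Casp1-/- minus WT. No TALE cofactor (Pbx, Meis and Pknox proteins, which bind DNA beside Hox proteins) passed in Casp1-/- minus WT (0 of 8 by limma, smallest adjusted p = 0.154). Of 27 Polycomb and Trithorax regulators, which keep Hox genes silent or active, 1 rose, the Polycomb subunit Phc1 (0.72 ± 0.10 SE, adjusted p = 0.00938). Phc1 was also lower in ASC-/- than in Casp1-/- fat (-0.67, adjusted p = 0.0115), as was the Polycomb partner Jarid2 (-0.40, adjusted p = 0.0461 in limma).

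Of 15 genes of the retinoic acid pathway, a known inducer of Hox genes in embryos, 2 rose in Casp1-/- minus WT, against 4.31% of all genes. These were the receptor Rxra (0.81, adjusted p = 0.0242 in limma) and the retinol dehydrogenase Rdh10 (0.41, adjusted p = 0.0375). Of 24 other positional transcription factors 1 rose, Gata6 (0.70, adjusted p = 0.0234), a factor also known from peritoneal macrophages. The medians were -0.11 for TALE cofactors, -0.01 for Polycomb and Trithorax, 0.04 for retinoic acid and -0.01 for the other factors, beside 0.04 over all genes. In ASC-/- minus WT no member of these lists or of the cell type lists passed in limma, with a smallest adjusted p of 0.99997.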

How the data were processed

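RNA of epididymal fat was read on 10 Affymetrix HT_MG-430 PM arrays, 1 per sample. The deposited values are log2 signals, for which the submitters' processing notes name RMA with no version. Probe annotation came from GEO's platform table. RMA gives all arrays one distribution, so a change in total RNA leaves no trace and changes near background are compressed. Of 45141 probe sets, 28898 had 1 symbol, 551 several and 15588 none, beside 104 controls. The sample titles number 3 or 4 replicates per group, so p-values measure the spread between the samples of 1 series.

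Genes were fitted on all 10 arrays with limma 3.58.1 in R 4.3.3, 1 mean per genotype (7 residual and 2.43 prior degrees of freedom), two-sided, with Benjamini-Hochberg adjustment over 17097 genes. The number of arrays limits the precision. Tables and plots were made with Python 3.11.15. The fit was run on simulated data with set differences and independent noise. Those data held no spike-in sets and no arrays apart, so the run does not test the fit under them. Genes given with every array were those past the threshold, the 6 with the highest mean signal, and Hoxa5, Hoxc8, Hoxc9 and Hoxc10; others given so were chosen after their values were seen, and of a list at most 4 members were named. The members and the gene lists were chosen with earlier results of these data known. Replicate numbers did not pair the samples, with correlations of deviations between same-numbered arrays of -0.26 to 0.185. RefSeq (GRCm38.p6) gave gene order and promoters. Alternatives were quantile normalization, centring, dim-gene filters, other probe set rules, another empirical Bayes step, array weights, fits of 2 genotypes, blocks, a covariate and leaving out arrays.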

Additional observations from a re-analysis of the deposited data

Results flagged for a closer look

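Hoxb6 on WT replicate 1, at 6.98, lay far from the other 3 WT arrays (5.01 to 5.16). Its gap to the nearest of them took up 0.925 of the range of the group, above the critical value of Dixon's test for 4 samples. It was the 1 such case among 34 Hox genes screened, and chance alone flags about 1 in 20 groups.

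The responses of ASC-/- and Casp1-/- fat differed for 3 genes, tested as ASC-/- minus Casp1-/- in limma. The differences were -1.58 for Hoxc4, -1.86 for Hoxc5 and -1.06 for Hoxc8 on the log2 scale.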

How the results depend on the processing

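Hoxc4 and Hoxc5 kept their direction and passed in Casp1-/- minus WT under every alternative run, except that the second Hoxc5 probe set tested on its own did not pass (0.38, adjusted p = 0.051) and that the spike-in block rests on 1 WT array. Hoxc8 did not pass under all. Hoxc8 also missed the threshold with only Casp1-/- and WT fitted (0.91). In Casp1-/- minus WT 3 of the 34 Hox genes passed in the main fit, against 8.17% of all genes, and 6 with array weights, against 17.5%. With ASC-/- replicate 1 and WT replicate 1 both left out (an alternative chosen after seeing the data) 6 passed, against 16.1%. Over the fits without 1 array 2 to 8 passed, where the share of all genes was 0.374% to 17.7%. The 8 were without WT replicate 1, against 17.7%. The median Hox difference was 0.06, or 0.34 without genes under the background control, 0.26 without the dimmest genes, and -0.13 with the spike-in set as a block. In ASC-/- minus Casp1-/- the count was 3, against 7.39% of all genes, or 1 with the spike-in block, against 0.368%. With only these 2 genotypes fitted it was 4, adding Hoxb2, against 19.0%. Over the fits without 1 array it was 2 to 3, where the share of all genes was 0.275% to 15.3%. The median was -0.15, or -0.48 without genes under the background control and 0.051 with the spike-in block. The cause of these shifts was not tested. By design the filters leave fewer genes, and in Casp1-/- minus WT the spike-in block sets the Casp1-/- arrays against WT replicate 1 alone. The replicate number as a block, which does not pair the samples here, left 0 calls in ASC-/- minus WT, against 0.0175% of all genes. It left 2 in Casp1-/- minus WT (Hoxc4 and Hoxc5), against 0.0526%, and 2 in ASC-/- minus Casp1-/-, against 0.111%. The median differences were -0.10, 0.07 and -0.15 in the same order. The actin 3' minus 5' covariate took Hoxc8 from the calls of ASC-/- minus Casp1-/- (-0.83), where 1.35% of all genes passed. That actin measure was 0.54 to 0.67 on ASC-/- arrays and 0.82 to 0.98 on Casp1-/- arrays. On WT arrays it was 0.46 to 1.05. In ASC-/- minus Casp1-/- it therefore went with the genotype, and its part in the differences was not tested. Signals near the background control, as for 21 of the Hox genes, limit what could be seen.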
